A study of Mus musculus with 16 samples.

Results

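Collagens were followed as a gene family in the whole skin of mice that lacked the endoribonuclease MCPIP1, encoded by Zc3h12a, in keratinocytes, in myeloid cells, in both or in neither. Every counted target whose mouse symbol was Col, a number, the letter a and a number was taken, which gave 44 of 23930 targets, and 36 of the 44 had enough counts to be tested. All 16 mice were 12 weeks old and all carried Zc3h12a(loxP/loxP), the floxed gene that Cre can delete. The 4 Control mice had no Cre. The 4 EKO mice had in addition Krt14Cre(Tg/Wt), driven by the promoter of a basal keratinocyte keratin, and the 4 MKO mice LysMCre(Tg/Wt), active in macrophages and neutrophils. The 4 EMdKO mice carried both Cre genes. Whole skin also holds fibroblasts, vessels, muscle and fat, in which neither Cre is expected to act. RNA of the whole tissue was counted with an amplicon kit that reads a short stretch of each transcript, so levels are counts scaled to a common library total (CPM) of 1 amplicon per gene, and levels were tested between mice only; shares and ratios across genes describe counts of amplicons, not amounts of RNA. In such bulk RNA, fewer cells of a type and less RNA per cell cannot be told apart.

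Collagens are triple helices built from alpha chains. Fibroblasts of the dermis make the fibril-forming types I, III and V that give skin its tensile strength, and FACIT collagens sit on the surface of those fibrils. Type IV collagen forms the sheet of the basement membranes under the epidermis and around vessels, muscle fibres and fat cells, type VII anchors the epidermal basement membrane to the dermis, type XVII spans the membrane of basal keratinocytes, and type VI forms beaded filaments near cells. New chains are hydroxylated, folded, trimmed and cross-linked by a dedicated set of enzymes before they join the matrix.

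Of the 44 genes, 35 had an upstream window in a RefSeq table of GRCm38.p6 that spans 250 bases before a transcript start. The sequences of 4 genes are shown because their counts are the ones that the results below turn on: Col6a5 is the collagen gene that passed a test between the groups, Col6a6 is the other type VI chain high in the same mouse, and Col11a1 and Col18a1 followed the hair content of the skin pieces. Capitals mark a CCAAT box (CCAAT, or ATTGG on the other strand) and a GC box (GGGCGG, or CCGCCC on the other strand). Bases that belong to an exon of another annotated transcript were trimmed, so the Col6a6 stretch ends 76 bases and the Col18a1 stretch 19 bases before the start, while the other stretches end at the base before it. The Col6a5 stretch is chr9:105960644-105960893 on the minus strand, and the Col6a6 stretch, on the same chromosome, is chr9:105828161-105828335 on the minus strand. The Col11a1 stretch is chr3:114030290-114030539 on the plus strand and the Col18a1 stretch chr10:77166549-77166780 on the minus strand.

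Col6a5: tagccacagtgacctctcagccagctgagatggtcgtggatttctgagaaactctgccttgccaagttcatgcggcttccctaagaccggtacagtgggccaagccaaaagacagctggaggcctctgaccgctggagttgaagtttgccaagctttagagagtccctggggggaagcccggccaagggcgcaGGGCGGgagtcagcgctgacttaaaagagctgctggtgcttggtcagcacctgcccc
Col6a6: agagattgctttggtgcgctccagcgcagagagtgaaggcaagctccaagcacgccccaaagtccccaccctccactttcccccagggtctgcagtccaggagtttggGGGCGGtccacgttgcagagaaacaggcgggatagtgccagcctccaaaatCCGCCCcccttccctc
Col11a1: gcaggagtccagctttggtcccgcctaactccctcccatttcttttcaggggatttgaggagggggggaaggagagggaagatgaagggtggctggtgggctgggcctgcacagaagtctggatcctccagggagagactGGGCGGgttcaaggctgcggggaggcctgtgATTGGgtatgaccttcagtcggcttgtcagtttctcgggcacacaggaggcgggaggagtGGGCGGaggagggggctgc
Col18a1: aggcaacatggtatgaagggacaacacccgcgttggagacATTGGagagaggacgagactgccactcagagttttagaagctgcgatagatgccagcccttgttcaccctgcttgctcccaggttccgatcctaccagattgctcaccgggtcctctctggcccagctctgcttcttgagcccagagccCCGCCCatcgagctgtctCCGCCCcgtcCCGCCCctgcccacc

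The Col6a5 stretch held 1 GC box and no CCAAT box, the Col6a6 stretch 2 GC boxes, the Col11a1 stretch 1 CCAAT and 2 GC boxes and the Col18a1 stretch 1 CCAAT and 3 GC boxes. Col18a1 had another window, before another start, that held 0 CCAAT, 0 GC and 0 TATAAA boxes. Which start the counted amplicon reports is unknown. Over the 38 whole windows of the 35 collagen genes, a GC box on either strand was found in 57.9%, compared with 32.7% of all 32851 windows in the table. A CCAAT box was present in 34.2% against 33.8%, and a TATAAA box, searched on both strands, in 13.2% against 12.4%. These are matches of letters within the window and were not tied to any measurement here.

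The 16 libraries held between 6962474 and 12086327 counts. Collagen targets took between 2.18 and 5.10% of them, and Col1a1, Col1a2 and Col3a1 together took 79.4 to 89.8% of the collagen counts of each library. Zc3h12a, the targeted gene, was at 19.4 to 30.3 CPM in the controls, 17.1 to 35.0 in MKO, 7.07 to 11.7 in EKO and 4.41 to 5.71 in EMdKO, so each mouse with Krt14Cre(Tg/Wt) lay below every mouse without it; the position of the amplicon relative to the deleted part is unknown. The sum of 18 hair shaft and inner root sheath genes ran from 13.6 to 42031 CPM between mice and that of 15 skeletal muscle genes from 24420 to 118539 CPM, with EKO mouse 1 and MKO mouse 1 the highest for muscle. The sum of 9 fibroblast genes other than collagens ran from 2963 to 6141 CPM among controls, 3025 to 3732 among EKO mice, 3836 to 5139 among MKO mice and 3107 to 4591 among EMdKO mice, and the groups overlapped. Dcn, a proteoglycan gene, made up 50.3 to 75.6% of that sum, and Dcn itself had a log2 fold change of 0.00 in EMdKO against Control. The other 8 genes had negative log2 fold changes in that contrast, with a median of -0.38 over all 9, where the 36 collagen genes had -0.36. In EKO the median over the 9 was about the same, -0.37, while the collagen genes had -0.09. In MKO the fibroblast median was -0.13 and the collagen median 0.02. In EMdKO, 4 of the 9 were lower at an unadjusted p under 0.05, where 4.65% of all genes were. There 0 passed (edgeR quasi-likelihood, Benjamini-Hochberg adjusted p under 0.05), where 0.0293% of all genes did. The number lower at an unadjusted p was 2 in EKO and 0 in MKO, where 3.62 and 6.41% of all genes were. It was 5 for Krt14-Cre and 0 for LysM-Cre, where 5.35 and 7.64% were. Mfap5, a microfibril gene, was at 51.3, 47.2, 68.7 and 64.8 CPM in the controls and 37.9, 21.0, 29.9 and 22.7 CPM in the EMdKO mice, every EMdKO mouse below every control. This held for 1 of the 9 genes and for 1.45% of all genes. Dpp4, a fibroblast surface peptidase, was at 157, 80.0, 146 and 88.0 CPM in the controls and 88.8, 48.7, 57.8 and 56.9 CPM in the EMdKO mice, of which mouse 1 reached the control range. The part of these fibroblast markers in the collagen differences was not tested.

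Of 8 collagen genes with too few counts to test, Col2a1, Col6a4, Col9a1, Col9a2, Col10a1, Col19a1, Col25a1 and Col26a1, none exceeded 16 counts in any library. Col2a1, Col9a1 and Col9a2 encode cartilage collagens, Col10a1 the collagen of growth plate cartilage, and Col25a1 a transmembrane collagen of neurons. Col9a2 had 0 counts in all 16 libraries, and a count of 0 still allows up to 3 counts in a library.

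The share of all counts that fell on the 44 collagen targets averaged 3.82 ± 1.183% (SD, n = 4) in the controls and 3.02 ± 0.579% in EKO, with 3.58 ± 0.779% in MKO and 3.37 ± 0.683% in EMdKO. The highest and one of the lowest shares both came from controls, mouse 3 at 5.10% and mouse 1 at 2.28%, so the knockouts lay within the control range except EKO mouse 2 at 2.18%. Type IV targets took 0.0755 ± 0.0047% in Control and 0.0458 ± 0.0054% in EMdKO. Here the 4 EMdKO mice, at 0.0394 to 0.0525%, lay below the 4 controls, at 0.0700 to 0.0809%, whereas EKO and MKO each had mouse 1 well above the other mice of its group. Most of this share was Col4a1 and Col4a2, with control means of 554.5 and 172.6 CPM, and it largely restates these genes, described below. No other type IV gene averaged above 16.9 CPM in the controls.

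**Figure D1:**
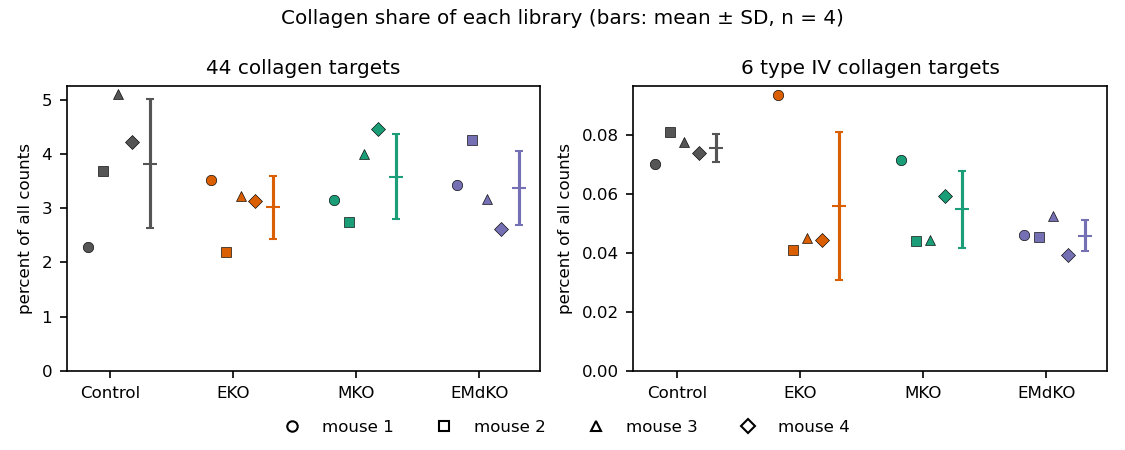
Percent of all counts in each library that fell on the 44 collagen targets (left) and on the 6 type IV targets (right), by group. Each symbol is 1 mouse and bars are the mean ± SD of 4 mice; the total collagen share overlaps between groups, while the EMdKO values for type IV (0.0394 to 0.0525%) lie below all controls (0.0700 to 0.0809%). Most type IV counts are of Col4a1 and Col4a2.

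Over the collagen genes as a set, the double knockout stood furthest from control. The median log2 fold change of the 36 tested genes was -0.36 in EMdKO, -0.09 in EKO and 0.02 in MKO against the same 4 controls, while the medians over all 13633 tested genes were -0.02, -0.03 and 0.00. The EMdKO median was negative in each of the 16 fits that left out a library (-0.47 to -0.23), whereas those of EKO (-0.22 to 0.02) and MKO (-0.10 to 0.18) took both signs. With limma-voom and its quality weights the medians were -0.44 in EMdKO, -0.31 in EKO and -0.17 in MKO, so the EKO median was over 3 times that of the edgeR fit and the MKO median had the other sign. These medians describe the genes and carry no test, since collagen genes of 1 mouse share the same tissue.

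By the test across all genes, 0 of 36 collagen genes passed in EMdKO against Control (edgeR quasi-likelihood, Benjamini-Hochberg adjusted p under 0.05), where 0.0293% of all genes did. DESeq2 called 1, Col14a1, and limma-voom called 0. An unadjusted p under 0.05 was reached by 9 collagen genes that were lower and 0 that were higher, that is 25.0% of the 36 lower where 4.65% of all genes were lower and 3.51% higher. A negative log2 fold change was found in 25 of 36, as in 52.9% of all genes. The 9 genes were Col14a1, Col6a3, Col4a2, Col5a2, Col4a1, Col5a3, Col27a1, Col11a1 and Col6a1. Without regard to a model, 6 collagen genes lay lower in every EMdKO mouse than in any control, which held for 1.45% of all genes: Col4a1, Col4a2, Col5a3, Col6a3, Col16a1 and Col27a1. In the opposite direction Col23a1 lay higher in every EMdKO mouse, as did 2.23% of all genes.

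In EKO against Control, 0 of 36 collagen genes passed (edgeR quasi-likelihood, Benjamini-Hochberg adjusted p under 0.05; 0.0% of all genes did), as with DESeq2 and limma-voom. Col8a1 was the 1 collagen gene higher at an unadjusted p under 0.05 and 0 were lower, where 3.28% of all genes were higher and 3.62% lower, and 23 of 36 had a negative log2 fold change (54.2% of all genes). In MKO against Control, 0 of 36 passed in the same test (0.0293% of all genes did). The other tools called 0, with any gene that DESeq2 left without an adjusted p counted as not called. In the edgeR fit of MKO, 2 collagen genes were lower at an unadjusted p under 0.05 (Col12a1 and Col18a1, 5.56%, where 6.41% of all genes were) and 2 were higher (Col6a5 and Col6a6, 5.56% against 3.17%), and 16 of 36 had a negative log2 fold change (49.8% of all genes). No collagen gene lay below or above every control in all EKO mice (1.23 and 1.03% of all genes did) or in all MKO mice (1.71 and 1.37%).

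The mean effect of each Cre gene set the groups with it against the groups without it. For Krt14-Cre, EKO and EMdKO against Control and MKO, 0 of 36 collagen genes passed (edgeR quasi-likelihood, Benjamini-Hochberg adjusted p under 0.05; 0.924% of all genes did), while DESeq2 called Col6a6 and limma-voom called 0. An unadjusted p under 0.05 was reached by 9 that were lower (25.0%, where 5.35% of all genes were) and 0 higher (5.62%), and 28 of 36 had a negative log2 fold change, as 54.8% of all genes had. For LysM-Cre, MKO and EMdKO against Control and EKO, 0 of 36 passed in the edgeR test (0.044% of all genes did), and limma-voom called Col6a3 and Col14a1. Of the 36, 6 were lower at an unadjusted p under 0.05 (16.7%, where 7.64% of all genes were) and 1 was higher (2.78% against 5.49%), and 20 had a negative log2 fold change (49.5% of all genes). The interaction, which asks whether the double knockout departs from the sum of both single ones, gave 0 of 36 (edgeR quasi-likelihood, Benjamini-Hochberg adjusted p under 0.05; 0.0% of all genes) and 0 with DESeq2 and limma-voom. A negative interaction at an unadjusted p under 0.05 was found for 5 collagen genes (Col6a5, Col6a6, Col14a1, Col6a1 and Col20a1), 13.9% where 1.19% of all genes had one, and a positive one for 0, where 2.22% had one. Without MKO mouse 3, the highest of 16 for Col6a5, Col6a6, Col6a1 and Col20a1, Col14a1 alone was left of the 5 (0.879% of all genes were lower in that fit), and the interaction shrank from -4.34 to -1.11 for Col6a5, from -1.37 to -0.69 for Col6a6 and from -0.92 to -0.54 for Col6a1. The sign was negative in 25 of 36, as in 48.5% of all genes. These contrasts reuse the same 16 mice, so they are not independent of each other.

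The counts at an unadjusted p moved when single libraries were left out. In EMdKO against Control 6 to 11 collagen genes were lower over the 16 fits and 0 to 3 higher, the 3 without Control mouse 4. For Krt14-Cre 5 to 12 were lower, with 5 without Control mouse 3, and for LysM-Cre 4 to 7 were lower and 1 to 4 higher, the 4 without Control mouse 4. The interaction was negative for 1 to 7, with 1 without MKO mouse 3, 2 without EKO mouse 3 and 3 without Control mouse 1, Control mouse 2, EKO mouse 2 or EMdKO mouse 1. In EKO 0 to 2 were lower and 0 to 1 higher. In MKO 0 to 5 were lower, with 0 without Control mouse 1 and 5 without MKO mouse 1, and 1 to 5 higher, with 5 without Control mouse 4.

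**Figure D2:**
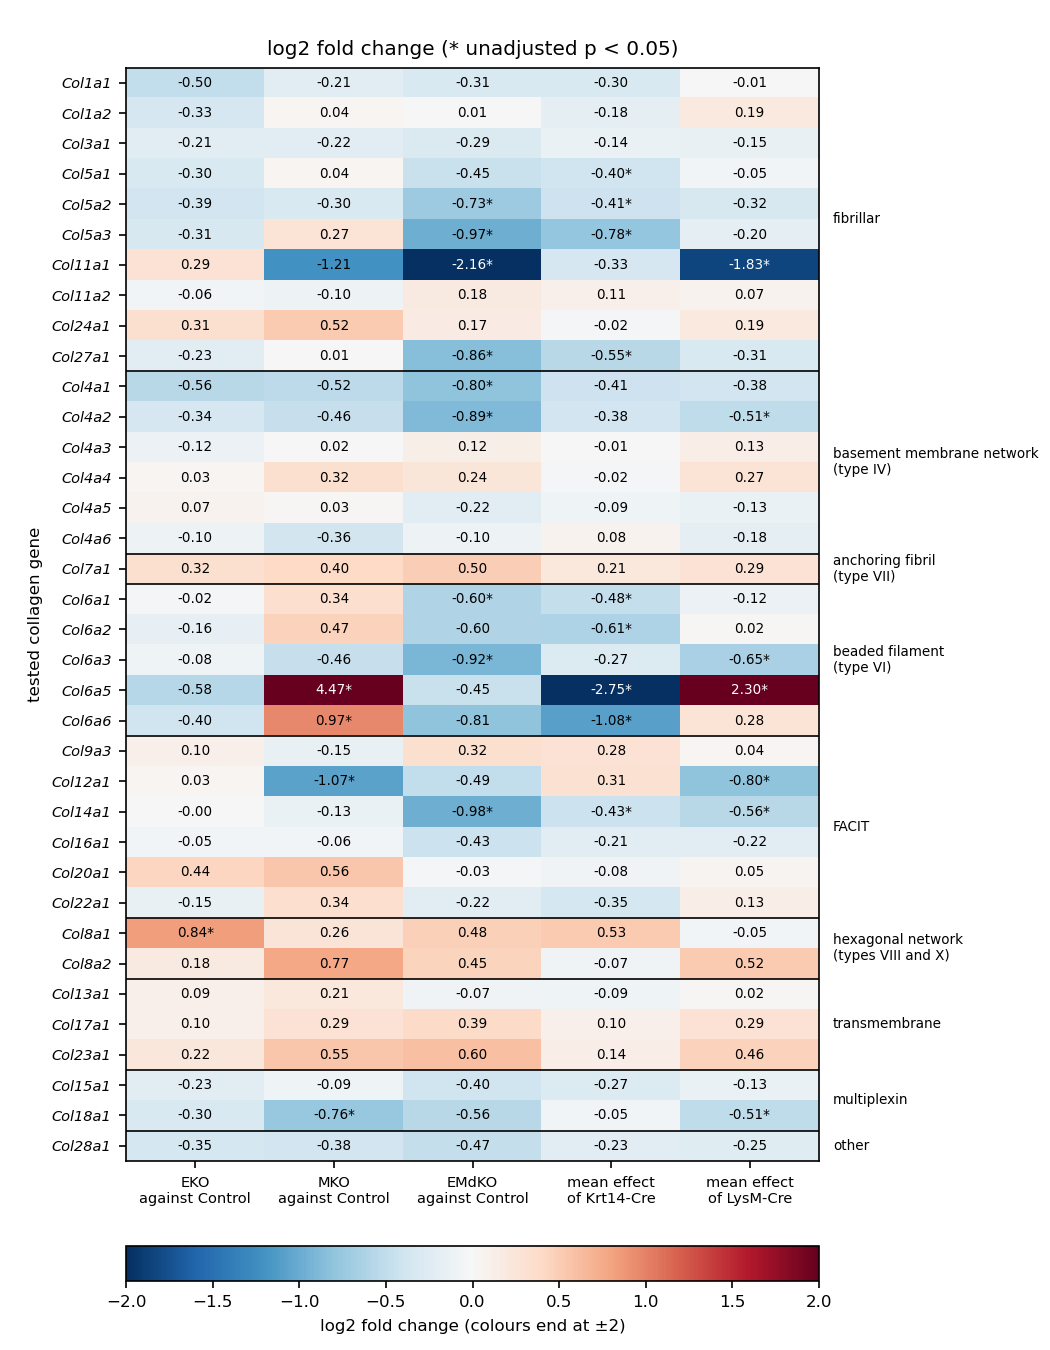
Fitted log2 fold change of the 36 tested collagen genes, grouped by structural class, in 5 contrasts, with colours that end at ±2 and an asterisk for an unadjusted p under 0.05. The EMdKO column holds 9 asterisks, all on negative values; no cell passes the adjusted threshold.

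The fibrillar collagens are the bulk of the dermis. Col1a1 encodes the chain present as a pair in each type I molecule, and its levels in the controls, mouse 1 to mouse 4, were 12684, 21375, 29885 and 24516 CPM. The EKO mice had 18229, 9631, 16534 and 18197, the MKO mice 20197, 13199, 19691 and 23535 and the EMdKO mice 17230.2, 25231, 14933 and 13969 CPM. The controls alone spanned more than the other groups, and every group overlapped every other. For EKO the log2 fold change was -0.50 ± 0.33 and missed the threshold (edgeR quasi-likelihood, Benjamini-Hochberg adjusted p = 0.793).

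Col1a2, the partner chain of type I, was at 5522, 8786, 9196 and 8383 CPM in Control and 9072, 4252, 6294 and 5664 CPM in EKO. It was at 6398, 5765, 7964 and 12584 CPM in MKO and 9262, 7769.5, 9795 and 5345 CPM in EMdKO. Here the highest mouse was MKO mouse 4 and the lowest EKO mouse 2, and the groups overlapped. The ratio of Col1a1 to Col1a2 counts ranged from 1.53 to 3.25 over the 16 libraries; it compares 2 amplicons and does not give the ratio of chains. Col3a1, the type III chain of the finer fibrils, was at 2024, 3611, 5177 and 4064 CPM in the Control mice, 3557, 2643, 3518 and 3136 in the EKO mice, 3181, 2233, 4056 and 3279 in the MKO mice and 2489, 4999, 2208 and 2450.4 in the EMdKO mice. In EMdKO, mouse 2 was the high one, at about the level of the highest control, and also had the most Col1a1 of its group. None of the 3 genes reached an unadjusted p under 0.05 in any contrast.

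Type V collagen lies inside type I fibrils and sets their width. Col5a1 was at 264, 370.2, 467 and 413 CPM in the 4 controls in order, 315, 287, 324 and 301 CPM in EKO mice, 378, 254, 477 and 448 CPM in MKO mice and 258, 300.5, 351 and 201 CPM in EMdKO mice. The 4 EKO mice lay close together within the control range, and the mean effect of Krt14-Cre was -0.40 ± 0.15 (edgeR quasi-likelihood, Benjamini-Hochberg adjusted p = 0.336). Col5a2 was at 118, 171, 242 and 151 CPM among controls, 132, 111, 168 and 109.7 among EKO mice, 159.6, 94.0, 155 and 144 among MKO mice and 77.9, 132, 119 and 80.8 among EMdKO mice. In EMdKO, mice 1 and 4 lay below every control and mice 2 and 3 within the control range (log2 fold change -0.73 ± 0.24; edgeR quasi-likelihood, Benjamini-Hochberg adjusted p = 0.434).

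Col5a3, another type V chain, separated EMdKO from control. Its values were 15.5, 22.9, 21.3 and 23.9 CPM in Control and 8.95, 13.8, 10.5 and 9.35 CPM in EMdKO, with every EMdKO mouse below every control. They were 21.4, 17.0, 13.3 and 15.4 CPM in EKO and 26.8, 13.1, 48.4 and 12.3 CPM in MKO, where mouse 3 was the highest of all 16. The log2 fold change was -0.97 ± 0.35 in EMdKO (edgeR quasi-likelihood, Benjamini-Hochberg adjusted p = 0.458). The mean effect of Krt14-Cre on Col5a3 was -0.78 ± 0.24 (edgeR quasi-likelihood, Benjamini-Hochberg adjusted p = 0.202) and shrank to -0.51 without MKO mouse 3.

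The other fibrillar genes were Col11a1, described with hair below, and 3 with low counts. Col27a1, a collagen of cartilage and other tissues, was at 4.46, 3.6, 9.06 and 3.75 CPM in Control and 2.73, 3.03, 3.33 and 2.52 in EMdKO, a group with every mouse below every control (log2 fold change -0.86 ± 0.35; edgeR quasi-likelihood, Benjamini-Hochberg adjusted p = 0.534). The gap was small for such low counts, 3.33 against 3.6 CPM at the nearest mice. Col24a1 ranged from 1.37 to 6.43 CPM and Col11a2 from 0.263 to 1.79 CPM over the 16 mice, with no unadjusted p under 0.05 in any contrast. The median log2 fold change of the 10 tested fibrillar genes was -0.38 in EMdKO, -0.27 in EKO and -0.05 in MKO.

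**Figure D3:**
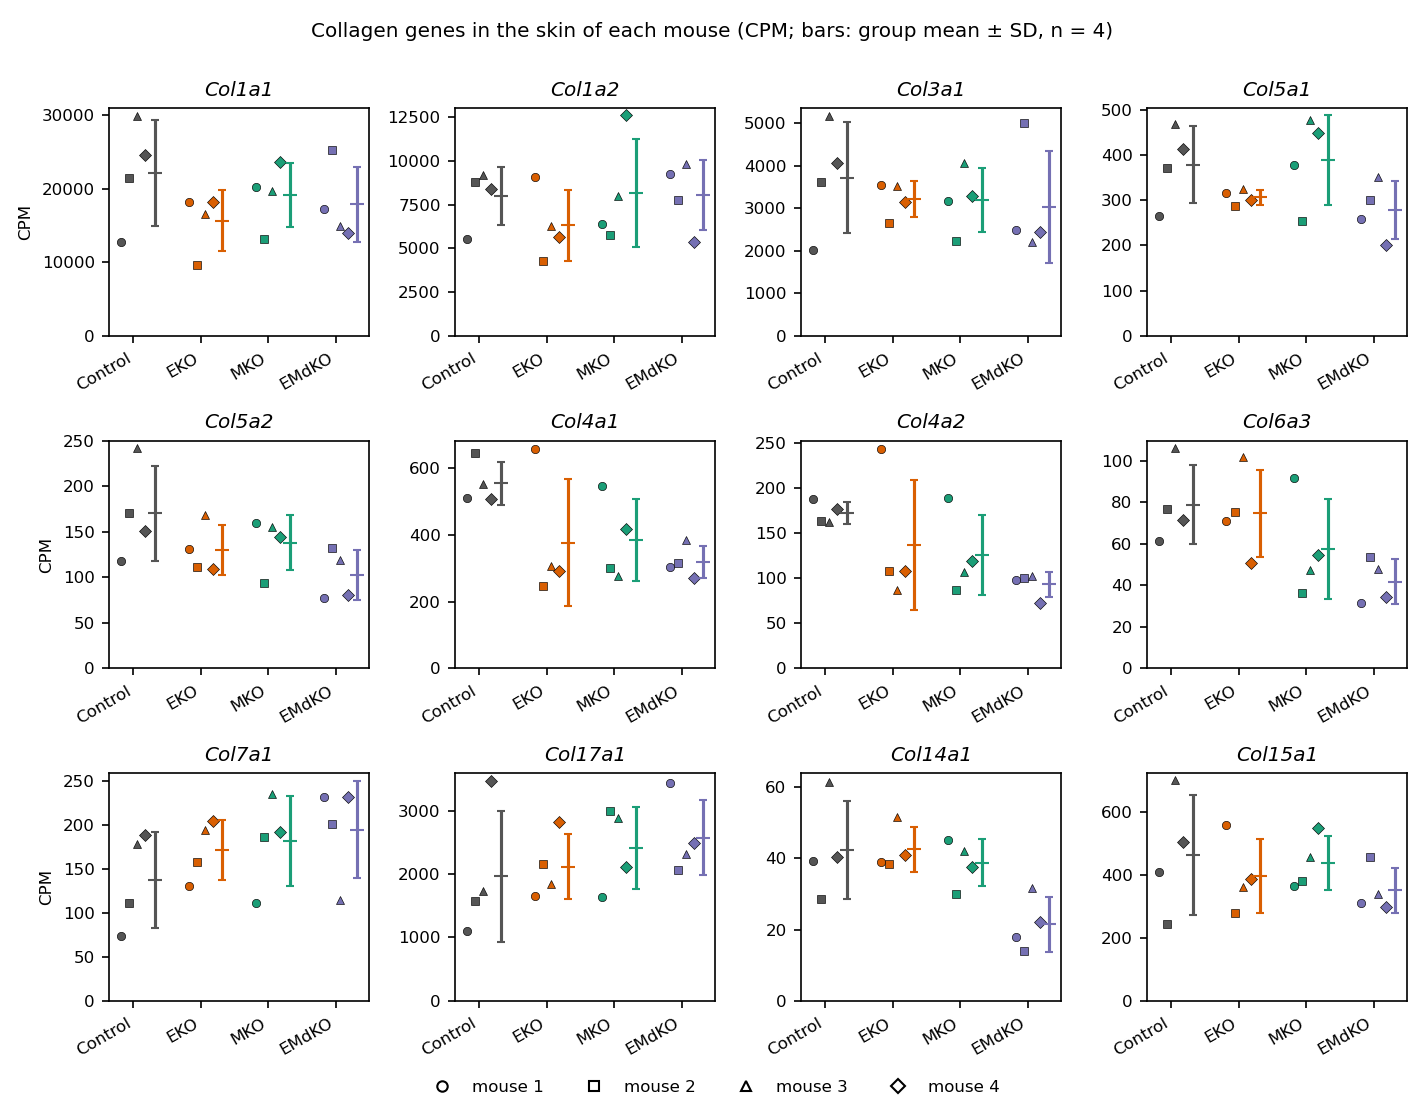
CPM of 12 collagen genes in each of the 16 mice; symbols give the mouse number and bars the group mean ± SD (n = 4), each panel on its own linear axis from 0. Col1a1, Col1a2 and Col3a1 overlap between all groups, while Col4a1, Col4a2 and Col6a3 are lower in every EMdKO mouse than in any control.

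For the main type IV chains the 4 controls lay close together. Col4a1, a chain of the common network of all basement membranes, was at 511, 647, 552 and 509 CPM in Control and 303, 316, 385 and 272 CPM in EMdKO. It was at 659, 248, 308 and 292 CPM in EKO and 546, 299.6, 278 and 418 CPM in MKO. Mouse 1 of EKO and mouse 1 of MKO reached the control level, and the other 3 mice of each group lay below every control, as all 4 EMdKO mice did.

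Col4a2, its partner chain, followed the same order with 188, 163, 163 and 177 CPM in Control and 98.03, 100.1, 102 and 73.0 CPM in EMdKO. It stood at 244, 108, 87.4 and 108 CPM in EKO and 189, 86.8, 107 and 119 CPM in MKO, again with mouse 1 high in both groups. The log2 fold changes in EMdKO were -0.80 ± 0.28 for Col4a1 and -0.89 ± 0.29 for Col4a2 (edgeR quasi-likelihood, Benjamini-Hochberg adjusted p = 0.447 and 0.433). In GRCm38.p6 the starts of Col4a1 (minus strand, position 11312826) and Col4a2 (plus strand, position 11312805) lie head to head on chromosome 8, and the 5′ ends of the transcripts share 22 bases. The ratio of Col4a1 to Col4a2 counts ranged from 2.29 to 3.97 over the 16 libraries.

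EKO mouse 1 decided whether the pair was called for Krt14-Cre. With all 16 libraries the mean effect was -0.41 ± 0.20 for Col4a1 and -0.38 ± 0.20 for Col4a2, and neither passed (edgeR quasi-likelihood, Benjamini-Hochberg adjusted p = 0.462 and 0.519). Without EKO mouse 1, both fell, with log2 fold changes of -0.62 ± 0.15 for Col4a1 and -0.60 ± 0.15 for Col4a2 (edgeR quasi-likelihood, Benjamini-Hochberg adjusted p = 0.0386 and 0.0431). That mouse and MKO mouse 1 also had the most skeletal muscle RNA, 68201 and 118539 CPM summed over 15 genes where the other 14 mice had at most 59897, and the most smooth muscle and pericyte RNA, 3293 and 4538 CPM over 6 genes where the others had at most 2668. The part of muscle RNA in the Col4a1 and Col4a2 levels of these mice was not tested. Endothelial genes summed to 254.5 to 398 CPM in Control and 269.5 to 385.5 in EMdKO. With the muscle score in the model, the EMdKO log2 fold change was -0.78 for Col4a1 and -0.89 for Col4a2, and with the hair shaft score it was -0.62 and -0.77, none of them past the threshold. For Krt14-Cre, 9 other fits kept all 16 libraries, the muscle score fit among them, and called neither gene. The lowest adjusted p over these edgeR, DESeq2 and limma-voom fits was 0.0903 for Col4a1 and 0.112 for Col4a2.

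The chains of the other type IV networks did not share that order. Col4a3 and Col4a4, which join Col4a5 in the networks of specialised membranes, ranged from 9.07 to 30.2 CPM and from 7.68 to 19.5 CPM. Col4a5 and Col4a6, chains of a network in epidermal and smooth muscle basement membranes, ranged from 3.60 to 14.7 CPM and from 2.51 to 8.75 CPM. For each of the 4 genes Control mouse 4 was the highest of 16, and the log2 fold changes against Control lay between -0.36 and 0.32 over the 3 groups, with no unadjusted p under 0.05.

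The 2 collagens that fasten keratinocytes to the dermis had positive log2 fold changes in each group against Control and passed in none. Col7a1, the anchoring fibril chain made by keratinocytes and fibroblasts, was at 74.4, 111, 178 and 189 CPM in the Control mice, 131, 158, 194 and 205 in the EKO mice, 112, 187, 236 and 192 in the MKO mice and 232, 202, 115 and 232 in the EMdKO mice. Control mouse 1 was the lowest and MKO mouse 3 the highest. Col17a1, the hemidesmosome collagen of basal keratinocytes, was at 1105, 1568, 1735 and 3464 CPM in the 4 controls in order, 1651, 2154, 1839 and 2813 CPM in EKO mice, 1639, 2999, 2888 and 2107 CPM in MKO mice and 3429, 2067, 2313 and 2494 CPM in EMdKO mice. One control, mouse 4, was the highest of all, and the groups overlapped. The log2 fold changes in EKO, MKO and EMdKO were 0.32 ± 0.30, 0.40 ± 0.30 and 0.50 ± 0.30 for Col7a1, and 0.10 ± 0.32, 0.29 ± 0.32 and 0.39 ± 0.32 for Col17a1. Basal keratinocyte genes, 8 in sum, ran from 5926 to 10195 CPM among controls, 5516 to 12646 among EKO mice, 5781 to 8770 among MKO mice and 7813 to 11084 among EMdKO mice.

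Of the other transmembrane collagens, Col23a1 was at 31.3, 50.9, 44.9 and 57.2 CPM in Control and 73.8, 60.2, 58.7 and 87.3 in EMdKO, every EMdKO mouse above every control (log2 fold change 0.60 ± 0.31; edgeR quasi-likelihood, Benjamini-Hochberg adjusted p = 0.653). The gap between the groups was small, 57.2 against 58.7 CPM at the nearest mice. Col13a1, found at cell junctions, ranged from 1.47 to 6.71 CPM with no unadjusted p under 0.05 between groups.

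Type VI collagen held the call between groups, and 1 MKO mouse stood far above the rest. Col6a5, an alternative chain that can take the place of the usual alpha 3 chain and is made by skin fibroblasts, stood at 5.82, 9.93, 12.6 and 6.5 CPM in Control, 3.82, 9.07, 6.31 and 4.07 CPM in EKO and 5.22, 6.91, 9.52 and 3.99 CPM in EMdKO. The MKO mice had 17.4, 33.1, 713 and 11.4 CPM. MKO mouse 3 lay 4.42 above the next mouse on the log2 scale, and that next mouse and the one after it were also MKO mice. The test of any difference among the 4 groups called Col6a5 alone of the 36 (edgeR quasi-likelihood, Benjamini-Hochberg adjusted p = 0.0331), where 0.286% of all genes passed.

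Without MKO mouse 3 the call was lost (adjusted p = 0.192) and the log2 fold change in MKO against Control went from 4.47 ± 1.05 to 1.24. Over the 16 fits that left out a library the adjusted p ran from 0.0118 to 0.192 and the call was lost in 10 of them: without Control mouse 2, 3 or 4, EKO mouse 2, 3 or 4, EMdKO mouse 1, 2 or 4, or MKO mouse 3, with adjusted p of 0.0504 to 0.0973 in the 9 fits that kept MKO mouse 3. It was also lost with the hair shaft score in the model (0.131), the mouse number as a block (0.162) and limma-voom (0.225), and DESeq2 gave no adjusted p for Col6a5 but called Col6a6 and Col14a1 in its place (0.00200 and 0.0224). In limma-voom Col14a1 was called too (0.0413). At an unadjusted p under 0.05 the test held 9 collagen genes, 25.0% where 12.1% of all genes passed.

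Col6a6, a second alternative chain, was at 8.17, 9.64, 11.5 and 14.2 CPM among controls, 7.64, 9.07, 9.34 and 6.96 among EKO mice, 18.8, 10.7, 45.3 and 10.3 among MKO mice and 4.97, 8.48, 6.09 and 5.46 among EMdKO mice. Again MKO mouse 3 was the highest of all, and of the EMdKO mice only mouse 2 reached the control range. The mean effect of Krt14-Cre was -1.08 ± 0.27 for Col6a6 and -2.75 ± 0.71 for Col6a5 (edgeR quasi-likelihood, Benjamini-Hochberg adjusted p = 0.0815 and 0.0963). Without MKO mouse 4 both were called (edgeR quasi-likelihood, adjusted p = 0.0490 for each), while without MKO mouse 3 the effects shrank to -0.74 and -1.13. DESeq2 called Col6a6 in that contrast with all libraries (adjusted p = 0.00633).

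Col6a1 and Col6a2 encode the chains of every type VI filament. Col6a1 was at 275, 428, 494 and 359 CPM in the Control mice, 372, 410.2, 463 and 292 in the EKO mice, 499, 343, 838 and 286 in the MKO mice and 236, 258, 275 and 256 in the EMdKO mice. Col6a2 was at 137, 198, 266 and 189 CPM in the 4 controls in order, 181, 159.6, 209 and 155 CPM in EKO mice, 247, 159, 519 and 167 CPM in MKO mice and 112, 149.6, 160.3 and 100.5 CPM in EMdKO mice. Both had their highest value in MKO mouse 3, and the EMdKO mice lay close together at the low end of the controls or below. The EMdKO log2 fold changes were -0.60 ± 0.28 and -0.60 ± 0.32 (edgeR quasi-likelihood, Benjamini-Hochberg adjusted p = 0.605 and 0.668).

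Col6a3, the usual partner of those chains, was not among the genes high in MKO mouse 3. It was at 61.3, 76.7, 106 and 71.5 CPM among controls, 71.0, 75.3, 102 and 50.6 among EKO mice, 91.4, 36.1, 47.2 and 54.6 among MKO mice and 31.2, 53.7, 48.0 and 34.3 among EMdKO mice. Each EMdKO mouse and 3 of 4 MKO mice lay below every control. The log2 fold change was -0.92 ± 0.28 in EMdKO (edgeR quasi-likelihood, Benjamini-Hochberg adjusted p = 0.398), and the mean effect of LysM-Cre was -0.65 ± 0.20 (adjusted p = 0.196 in the same test). With limma-voom, which gives less weight to variable libraries, Col6a3 fell by 0.91 ± 0.18 for LysM-Cre (adjusted p = 0.0427).

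**Figure D4:**
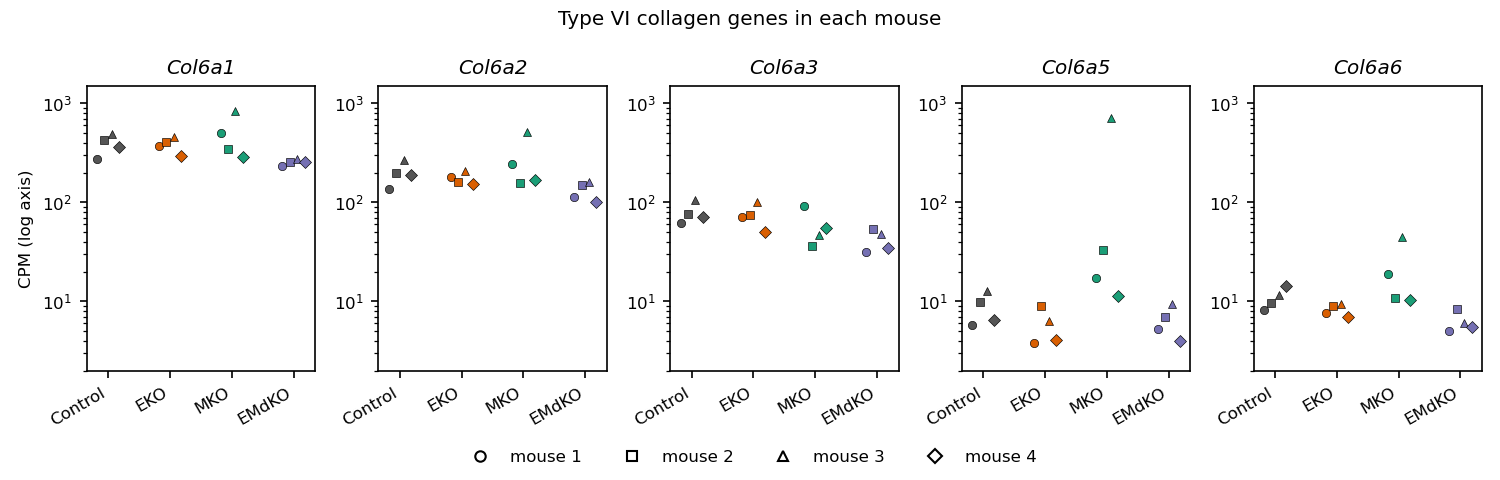
CPM of the 5 tested type VI genes in each mouse on a shared log axis; symbols give the mouse number. MKO mouse 3 (green triangle) is the highest of 16 for Col6a1, Col6a2, Col6a5 and Col6a6, at 838, 519, 713 and 45.3 CPM, but not for Col6a3, at 47.2 CPM.

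MKO mouse 3 was also the highest library for genes other than collagens. The number of tested genes for which it was the highest of the 16, 709, was within the range of the other libraries. That number was 378 for Control mouse 3, 2086 for MKO mouse 1 and 2127 for Control mouse 1. The largest gaps of this library are given here, and the largest gaps of the other libraries were not set beside them. Among the 709 genes the gap to the next library was largest for Col6a5, 4.42 on the log2 scale, rank 2 among such gaps over all tested genes and libraries. Genes with the next gaps, named after their values were seen, were Duox2, an epithelial enzyme that makes hydrogen peroxide (40.2 CPM where the next library had 2.98), Duoxa2, its maturation factor (62.8 against 3.45), and the carbonic anhydrase gene Car4 (89.1 against 7.84). Also high there were Tnfaip6, a hyaluronan-binding protein of inflamed matrix (136 against 26.7 CPM), Retnla, a secreted protein of alternatively activated macrophages (2395 against 747), and Postn, a matricellular protein of fibroblasts (986 against 312). The part of any of these in the Col6a5 level was not tested, and the sums of the fibroblast (3836 CPM), macrophage (434.5 CPM) and skeletal muscle (41818 CPM) lists in that mouse lay within the range of the other mice.

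The FACIT collagens coat fibrils and link them to other matrix. Col14a1, a fibril surface collagen of the dermis, was at 39.3, 28.6, 61.5 and 40.4 CPM in the Control mice, 39.0, 38.3, 51.7 and 41.0 in the EKO mice, 45.1, 30.1, 42.2 and 37.5 in the MKO mice and 17.8, 14.1, 31.8 and 22.2 in the EMdKO mice. Both single knockouts overlapped the controls, and 3 of 4 EMdKO mice lay below every other mouse, with mouse 3 within the control range. The log2 fold change in EMdKO was -0.98 ± 0.25, the smallest p of the collagen genes in that contrast (edgeR quasi-likelihood, Benjamini-Hochberg adjusted p = 0.339). With DESeq2, Col14a1 fell by 0.99 ± 0.26 (adjusted p = 0.0407). Over the 16 fits that left out a library the log2 fold change ran from -1.24 to -0.75, and the interaction of both Cre genes was -0.85 ± 0.35 (edgeR quasi-likelihood, Benjamini-Hochberg adjusted p = 0.999).

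Col12a1, a second fibril surface collagen, was at 117, 70.0, 51.2 and 23.0 CPM in the 4 controls in order, 91.0, 45.1, 71.7 and 60.2 CPM in EKO mice, 22.4, 25.9, 39.4 and 36.3 CPM in MKO mice and 42.8, 37.3, 69.7 and 36.4 CPM in EMdKO mice. Within the controls it spanned from 23.0 to 117 CPM, and Control mouse 4 sat among the MKO mice. The log2 fold change in MKO was -1.07 ± 0.38 (edgeR quasi-likelihood, Benjamini-Hochberg adjusted p = 0.355), and it was -0.08 with the hair shaft score in the model. Col16a1, which joins fibrillin microfibrils and basement membranes, was at 24.4, 25.2, 32.4 and 25.7 CPM in Control and 21.0, 21.4, 15.3 and 22.6 in EMdKO, every EMdKO mouse below every control (log2 fold change -0.43 ± 0.26; edgeR quasi-likelihood, Benjamini-Hochberg adjusted p = 0.737). The nearest mice of these groups were close, at 22.6 and 24.4 CPM. Col9a3, Col20a1 and Col22a1 stayed under 7 CPM in all mice, and no group differed from Control at an unadjusted p under 0.05.

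Col8a1, a chain of the hexagonal network under endothelium, was the collagen gene with the smallest p in EKO. It was at 4.46, 1.44, 6.54 and 4.998 CPM among controls, 4.44, 7.85, 11.2 and 8.14 among EKO mice, 8.78, 4.42, 4.41 and 3.64 among MKO mice and 6.88, 4.72, 6.18 and 6.72 among EMdKO mice. EKO mouse 1 lay within the control range and the other 3 EKO mice above it. The log2 fold change in EKO was 0.84 ± 0.38 (edgeR quasi-likelihood, Benjamini-Hochberg adjusted p = 0.718). Col8a2, its partner, ranged from 0.657 to 2.26 CPM.

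The multiplexins are basement membrane collagens whose ends can be released as fragments such as endostatin. Col15a1 was at 409.5, 245, 702 and 506 CPM in the Control mice, 559.5, 279, 363 and 387 in the EKO mice, 365, 381, 457 and 552 in the MKO mice and 311, 457, 342 and 298 in the EMdKO mice, and the controls spanned all other mice. Col18a1, the source of endostatin, was at 67.5, 64.6, 46.7 and 27.5 CPM in the 4 controls in order, 52.2, 35.4, 49.6 and 30.1 CPM in EKO mice, 30.2, 21.7, 24.4 and 44.9 CPM in MKO mice and 34.6, 31.7, 45.8 and 27.5 CPM in EMdKO mice. As with Col12a1, Control mouse 4 was far below the other controls, at the MKO level. The MKO log2 fold change was -0.76 ± 0.29 (edgeR quasi-likelihood, Benjamini-Hochberg adjusted p = 0.394), and it was -0.10 with the hair shaft score in the model. Col28a1, a collagen first described around peripheral nerve, ranged from 5.60 to 20.1 CPM with no unadjusted p under 0.05.

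Hair growth differed between the skin pieces. The hair shaft score is the mean log2 CPM of 18 genes of the hair shaft and inner root sheath, and it was 9.59, 7.03, 5.07 and -0.92 in Control mice 1 to 4, 7.06, 3.82, 5.25 and 1.15 in EKO, -1.17, -0.85, -0.81 and 3.42 in MKO and 0.92, -0.92, 6.82 and -0.82 in EMdKO. Control and EKO held high and low mice, while 3 of 4 MKO mice were among the lowest. In EMdKO mouse 3 alone was high, at 6.82, and the other mice lay at 0.92 or below, under every EKO mouse. The median log2 fold change of the 18 genes against Control was -2.06 in EKO, -6.57 in MKO and -3.135 in EMdKO, with 0 genes past the threshold. The slope of each gene on this score, with the group means in the model, was added after the data had been examined. It passed for 3 of 36 collagen genes (8.33%) where 5.09% of all genes passed. All 3 slopes were positive, as were 510 of the 694 that passed over all genes.

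Col18a1 rose by 0.12 ± 0.02 on the log2 scale per unit of score and Col12a1 by 0.16 ± 0.03 (edgeR quasi-likelihood, Benjamini-Hochberg adjusted p = 0.000534 and 0.00122), and both were called in each of the 16 fits made without 1 library. Col11a1, a fibrillar collagen best known from cartilage, rose by 0.38 ± 0.08 per unit (adjusted p = 0.0108 in the same test). It stood at 50.9, 39.8, 24.5 and 2.12 CPM among controls, 112, 8.29, 18.8 and 4.73 among EKO mice, 14.7, 6.57, 8.34 and 21.2 among MKO mice and 4.64, 7.88, 9.61 and 4.09 among EMdKO mice. The mice with the most Col11a1 were EKO mouse 1 and Control mouse 1, which also had the highest sums of 9 cartilage genes, 53.8 and 35.3 CPM where the other mice had at most 25.9. Acan and Sox5 carried these sums, at 23.4 and 27.8 CPM in EKO mouse 1 and 5.95 and 28.0 in Control mouse 1, while Matn1, Matn3, Hapln1, Cnmd, Ucma and Snorc were each under 1 CPM in both mice. The slope was 0.29 without EKO mouse 1 and 0.40 without Control mouse 1 and was called in both fits (adjusted p = 0.00834 and 0.0252 in the same test). Without Control mouse 4 the Col11a1 slope was 0.32 and its call was lost (adjusted p = 0.106).

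Collagens of the epidermal junction had slopes of the opposite sign that did not pass. The slope was -0.10 ± 0.03 for Col7a1 and -0.10 ± 0.03 for Col17a1 (edgeR quasi-likelihood, Benjamini-Hochberg adjusted p = 0.0742 and 0.0746). The abundant dermal genes had slopes of -0.03 ± 0.04 for Col1a1, 0.05 ± 0.04 for Col1a2 and -0.05 ± 0.04 for Col3a1, with adjusted p of 0.728, 0.513 and 0.480 in the same test. With the score as a covariate the median log2 fold change of the 36 genes was -0.33 in EMdKO, -0.09 in EKO and 0.01 in MKO.

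**Figure D5:**
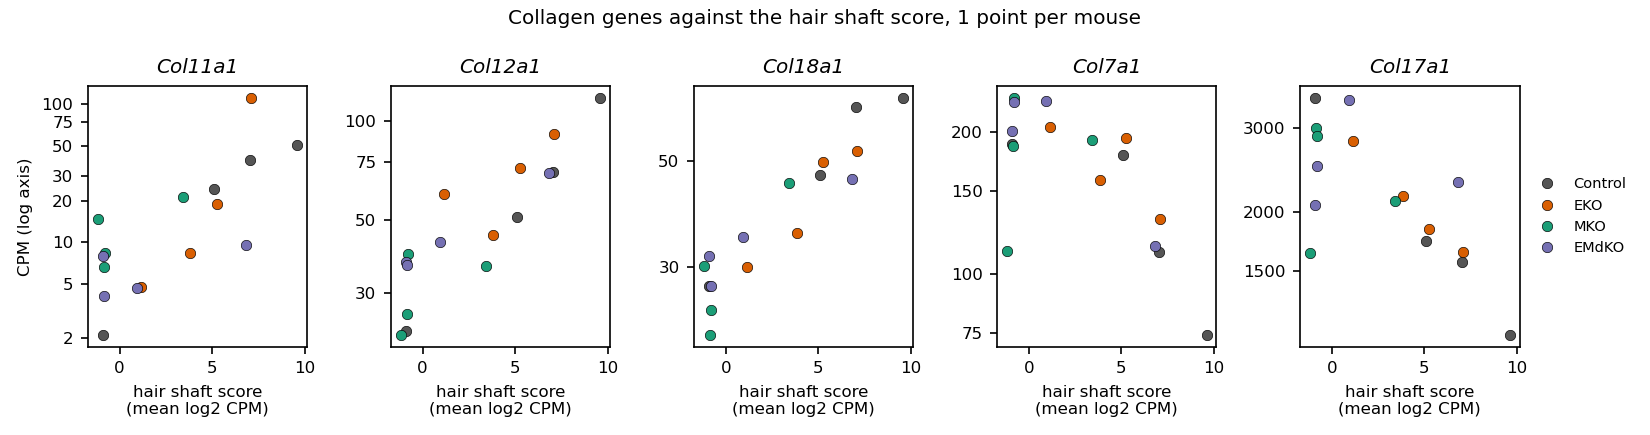
CPM (log axis) of 5 collagen genes against the hair shaft score (mean log2 CPM of 18 genes), 1 point per mouse, coloured by group. Col11a1, Col12a1 and Col18a1 are higher in mice with a high score, with slopes of 0.38, 0.16 and 0.12 per unit, and Col7a1 and Col17a1, at -0.10 each, did not pass.

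The genes that make, trim, bind and degrade collagen were counted from 7 lists, of whose 75 genes 70 were tested. In each of the 3 groups against Control, in both mean effects, in the interaction and in the test of any difference, 0 of 70 passed (edgeR quasi-likelihood, Benjamini-Hochberg adjusted p under 0.05). At an unadjusted p under 0.05, 9 were lower and 0 higher in EKO, 4 lower and 3 higher in MKO, and 11 lower and 1 higher in EMdKO. That is 12.9% lower in EKO, where 3.62% of all genes were, 5.71% lower and 4.29% higher in MKO, where 6.41 and 3.17% were, and 15.7% lower and 1.43% higher in EMdKO, where 4.65 and 3.51% were. For Krt14-Cre 15 were lower and 0 higher (21.4% lower, where 5.35% of all genes were), and for LysM-Cre 4 were lower and 4 higher (5.71% each, where 7.64 and 5.49% were). The interaction was negative for 3 and positive for 1 (4.29 and 1.43%, where 1.19 and 2.22% of all genes were), and the test of any difference held 11 (15.7%, where 12.1% of all genes were).

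None of the genes that hydroxylate, fold, export and trim the chains passed. The median log2 fold change for Krt14-Cre was -0.12 over 14 prolyl and lysyl modification genes and -0.36 over 12 genes of folding, export and propeptide removal. Over the 36 collagen genes it was -0.19. At an unadjusted p under 0.05, 1 of the 14 and 4 of the 12 were lower for Krt14-Cre, where 5.35% of all genes were. Crtap, part of the prolyl 3-hydroxylation complex, had -0.22 ± 0.09 for Krt14-Cre, Fkbp10, a collagen chaperone, -0.56 ± 0.20 in EMdKO, and Pcolce2, an enhancer of propeptide removal, -0.52 ± 0.18 for Krt14-Cre. P3h2, a prolyl 3-hydroxylase that acts on type IV collagen, had 0.49 ± 0.15 for LysM-Cre. Among the 4 tested cross-linking genes, Loxl3 and Loxl1, of the lysyl oxidase family, had -0.47 ± 0.17 and -0.41 ± 0.16 for Krt14-Cre. The Benjamini-Hochberg adjusted p of these 6 values in the edgeR quasi-likelihood test ran from 0.204 to 0.447.

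Among collagen receptors, Ddr2, a receptor tyrosine kinase for fibrillar collagen on fibroblasts, came closest to the threshold. It was at 137, 311, 220.4 and 142 CPM in the Control mice, 145, 104, 119 and 97.1 in the EKO mice, 160.4, 145, 145 and 180.3 in the MKO mice and 118, 116, 133 and 106 in the EMdKO mice. EKO mouse 1 reached the level of the lowest MKO mice, about 145 CPM, the other EKO mice and all EMdKO mice lay below it, and controls lay on both sides. The mean effect of Krt14-Cre was -0.61 ± 0.16 (edgeR quasi-likelihood, Benjamini-Hochberg adjusted p = 0.0963). Itga11, the alpha chain of a fibroblast collagen integrin, had -0.53 ± 0.18 (adjusted p = 0.238), and its highest value, 60.6 CPM, was in MKO mouse 3.

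Fn1, fibronectin, on which collagen fibrils assemble, was at 449.7, 394, 682 and 621 CPM in the 4 controls in order, 428, 501, 288 and 358 CPM in EKO mice, 694, 504, 2032 and 537 CPM in MKO mice and 283, 289.7, 469.9 and 215 CPM in EMdKO mice. MKO mouse 3 was again the highest, and the mean effect of Krt14-Cre was -1.02 ± 0.28 (edgeR quasi-likelihood, Benjamini-Hochberg adjusted p = 0.121). Ogn, a small leucine-rich proteoglycan, had -0.38 ± 0.13 (adjusted p = 0.273). Of the proteases, Mmp13, an interstitial collagenase, was at 3.59, 31.5, 1.96 and 0.25 CPM among controls, 0.206, 1.48, 11.3 and 0.525 among EKO mice, 0, 0, 0 and 0.126 among MKO mice and 1.41, 0.485, 0.381 and 0.105 among EMdKO mice. Control mouse 2 and EKO mouse 3 were the high ones, 3 MKO mice had no count, and the fitted mean effect of LysM-Cre (edgeR quasi-likelihood, Benjamini-Hochberg adjusted p = 0.124) depends on how such zeros are handled. Timp1, an inhibitor of these proteases, was highest in Control mouse 2, at 11.9 CPM, and lay between 0.485 and 4.13 CPM in the other 15 mice (mean effect of LysM-Cre -1.86 ± 0.51; edgeR quasi-likelihood, Benjamini-Hochberg adjusted p = 0.155).

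The signalling list held TGF-beta ligands, receptors and mediators that regulate collagen genes. Ccn2, a matricellular target of that pathway, had a mean effect of LysM-Cre of 0.45 ± 0.15, and Smad7, its inhibitor, had a log2 fold change of -0.75 ± 0.30 in MKO (edgeR quasi-likelihood, Benjamini-Hochberg adjusted p = 0.228 and 0.411). None of the 10 list members passed in any contrast.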

How the data were processed

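RNA of whole skin from 16 mice, 4 per group, was measured by amplicon sequencing (Ion AmpliSeq Transcriptome), as the labels' protocols state. For each library the authors deposited 1 unnormalised count per target, over 23930 targets. The submitters' processing notes name HTSeq 0.6.0 and DESeq2 1.18.1. The aligner, genome build and annotation are not given in the sources used here. HTSeq's own summary lines, 3.11 to 5.25% of reads, were left out of library sizes and tests. RefSeq accessions gave symbols to 22452 targets and GENCODE to 110 more, and 1368 had none.

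Counts were modelled with edgeR 4.0.16 in R 4.3.3 (quasi-likelihood test, 1 mean per group, TMM scaling, low counts filtered by filterByExpr, 13633 genes, 12 residual degrees of freedom), and Benjamini-Hochberg adjusted p under 0.05 over all genes was called. The biological coefficient of variation was 0.31. Standard errors of log2 fold changes are approximate, taken from the size of the change and its F statistic. CPM are counts divided by the total over the tested genes times the TMM factor. P-values measure the spread between mice, which the titles number as separate animals. Counting intervals and the limit of 3 counts behind a 0 cover counting error only. No 2 libraries were copies: over 120 pairs, chi-square per degree of freedom was at least 11.9.

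Genes given in full were 16 chosen for their place in skin, any collagen gene called, and the 3 with the smallest p in each contrast; from each pathway list the 2 with the smallest p were named. Col11a1, Col16a1, Col23a1 and Col27a1 were added after their values were seen. The members, lists and contrasts were chosen with earlier results of these data known. The alternatives were other scaling, DESeq2 1.42.0, limma-voom (limma 3.58.1) with sample quality weights, other filters, a fit without the uncompared groups, a block for the mouse number, a hair shaft covariate and each library left out. The skeletal muscle covariate and the slope on the hair shaft score came after the data had been examined. The edgeR, DESeq2 and limma-voom fits were first tested on simulated counts with known fold changes, for EKO against Control only. The other contrasts, the covariate and block fits, the slope and the counts of mice without overlap were not tested in that way. Summaries were computed in python 3.11.15 with pandas 2.3.3.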

Additional observations from a re-analysis of the deposited data

Results flagged for a closer look

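Over the 20 collagen genes given in full and the 4 groups, 80 sets of 4 mice were examined, and in 6 of them the mouse at one end lay far from the others by Dixon's criterion (chance marks about 1 in 20 groups). Col6a5 in MKO mouse 3 was at 713 CPM where the other MKO mice had 11.4 to 33.1. Col4a1 in EKO mouse 1 was at 659 CPM (others 248 to 308), and Col4a2 in the same mouse at 244 CPM (others 87.4 to 108). Col4a2 in EMdKO mouse 4 was low, at 73.0 CPM (others 98.03 to 102). Col3a1 in EMdKO mouse 2 was at 4999 CPM (others 2208 to 2489), and Col8a1 in MKO mouse 1 at 8.78 CPM (others 3.64 to 4.42). Of these mice, leaving out MKO mouse 3, EMdKO mouse 2 or EMdKO mouse 4 each lost the call of Col6a5 among the 4 groups, as leaving out 7 other mice did, and leaving out EKO mouse 1 added calls of Col4a1 and Col4a2 for Krt14-Cre.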

How the results depend on the processing

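The counts of called collagen genes were 0 in every alternative for EKO against Control, MKO against Control and the interaction. For EMdKO against Control DESeq2 called 1. For Krt14-Cre DESeq2 called 1, and the fits that left out a library called 0 to 2. For LysM-Cre limma-voom called 2. In the test of any difference among the 4 groups DESeq2 called 2, limma-voom 1 that was not Col6a5, the hair shaft covariate 0 and the fits that left out a library 0 to 1. The cause of these shifts was not tested. With the mouse number as a replicate block that last test called 0 where it called 1 without it, and the block changed no other call. No label says that the numbers pair the mice. The deviations of 24 same-number pairs correlated with a median of -0.11 (-0.54 to 0.61), and those of 72 other pairs with a median of 0.01 (-0.72 to 0.57). Of the 16 libraries, 5 correlated best with their own number. Hair and muscle RNA also varied between mice, so these correlations cannot settle whether the mice were paired. Of the alternative values for single genes, 649 kept their side of the threshold, 8 crossed to pass, 14 no longer passed and 0 changed sign. Most of the 649 had not passed in the main fit and still did not. Of the 14, 13 were Col6a5 in the test of any difference, where 11 kept the call, and 1 was the Col11a1 slope. Only fold changes and slopes have a sign that could change. In this tally a fold change without an adjusted p counted as not passing. Scaling by library totals or RLE factors changed no call. Depth limits the 8 untested genes and those near 1 CPM such as Col8a2 and Col11a2.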
